A study of Mus musculus with 6 samples.

Results

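The classical immediate early genes of neurons were examined in the hippocampus of mice with reduced p300. The 10 genes were the transcription factor genes Fos, Fosb, Jun, Junb, Egr1, Egr2, Egr3, Egr4 and Npas4 and the synaptic effector gene Arc. They were taken by name, as every probe set annotated to exactly 1 of these genes. All 10 genes were found, with 13 probe sets of the 45037 tested. Jun, Egr2 and Egr3 were each read by a pair of probe sets and the others by 1.

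RNA came from whole hippocampi of p300+/- mice, heterozygous for a deficiency of p300, and of their wild-type littermates. All were females of 3 months kept on a C57BL/6 background, group-housed in single-sex cages. The labels name no treatment, and the design of the p300 allele and the time from handling to dissection were not stated either. Each of 6 Affymetrix Mouse Genome 430 2.0 arrays carried equal amounts of RNA from 4 animals, with 3 arrays and 12 animals per genotype. Pooling hides the spread between single animals, which for genes that follow recent activity of each animal is part of what would be measured.

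Immediate early genes are transcribed within minutes of a stimulus, without prior protein synthesis. In hippocampal neurons calcium and MAP kinase signals act on CREB, SRF with its ternary complex factors, and MEF2, which are bound at these genes beforehand. Phosphorylated CREB recruits the paralogous acetyltransferases CBP and p300, which is why the genes are a natural question in p300-deficient tissue. FOS and JUN proteins pair into the AP-1 factor, EGR proteins bind GC-rich sites through zinc fingers, NPAS4 is a neuron-specific factor induced by calcium entry, and ARC promotes endocytosis of AMPA receptors at active synapses.

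The sequence just before the gene start was available for 7 of the genes (RefSeq, GRCm38.p6), and 5 are shown as examples. Between arrays Fos had an r of 0.91 with Egr2 and 0.78 with Junb, but Egr2 and Junb had 0.62. Jun and Npas4 had an r of 0.94 and 0.88 with Egr1, and 0.76 with each other. Fosb and Egr4 had 0.87 and are not shown, so a high r does not set the 5 apart. Each line gives the 250 bases before the start, read 5′ to 3′ on the gene's strand. They lie at chr12:85473640-85473889 (plus strand, Fos), chr8:84978749-84978998 (minus strand, Junb), chr10:67537619-67537868 (plus strand, Egr2), chr4:95052223-95052472 (minus strand, Jun) and chr19:4989972-4990221 (minus strand, Npas4). Egr2 has 5 starts in the table, and the first of those with the most kinds of motif is shown. Capitals mark matches to the CRE core TGACG, the CArG box bound by SRF, and the TATA box.
Fos: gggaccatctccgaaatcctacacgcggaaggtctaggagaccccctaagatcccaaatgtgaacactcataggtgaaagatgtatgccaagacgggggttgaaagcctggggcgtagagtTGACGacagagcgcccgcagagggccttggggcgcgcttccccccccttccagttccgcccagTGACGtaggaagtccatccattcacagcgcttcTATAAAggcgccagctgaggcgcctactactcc
Junb: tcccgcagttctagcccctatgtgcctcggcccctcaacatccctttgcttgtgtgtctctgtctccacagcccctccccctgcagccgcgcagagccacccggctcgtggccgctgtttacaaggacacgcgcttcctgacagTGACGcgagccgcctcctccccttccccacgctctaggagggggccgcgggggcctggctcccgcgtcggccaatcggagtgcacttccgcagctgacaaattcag
Egr2: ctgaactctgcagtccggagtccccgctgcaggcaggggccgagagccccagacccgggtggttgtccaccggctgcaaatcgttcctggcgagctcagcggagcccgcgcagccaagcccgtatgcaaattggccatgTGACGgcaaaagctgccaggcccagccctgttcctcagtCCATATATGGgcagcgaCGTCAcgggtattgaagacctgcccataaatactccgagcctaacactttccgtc
Jun: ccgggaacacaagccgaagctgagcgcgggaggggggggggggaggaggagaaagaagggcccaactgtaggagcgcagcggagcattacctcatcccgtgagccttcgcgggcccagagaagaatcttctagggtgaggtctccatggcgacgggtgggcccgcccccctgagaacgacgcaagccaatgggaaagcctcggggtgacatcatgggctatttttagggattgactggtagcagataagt
Npas4: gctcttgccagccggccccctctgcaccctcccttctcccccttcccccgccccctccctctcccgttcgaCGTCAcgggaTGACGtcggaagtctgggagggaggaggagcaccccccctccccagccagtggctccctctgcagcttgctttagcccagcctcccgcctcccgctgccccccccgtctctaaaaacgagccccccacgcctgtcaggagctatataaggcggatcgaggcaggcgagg

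The CRE core TGACG, searched on both strands, was present before 6 of the 7 genes, Jun being without it. Of all 32536 promoter windows of this length 17.9% hold it. This share is per single window, whereas Egr2 has 5 windows and was counted when any of them matched. By single windows the core was in 8 of the 11 of these genes and in 3 of the 5 of Egr2. Those 3 windows of Egr2 overlap and hold the same matches, so they are not separate counts. The full CRE TGACGTCA, which contains this core, was in 1.56% of all windows and before none of the 7. In Fos the CRE cores lay 129 to 125 and 66 to 62 bases before the start, and a TATA box (TATAAA, 12.3% of windows) lay at 33 to 28. In Npas4 a pair of CRE cores of opposite orientation lay close together, at 179 to 175 and 169 to 165. A CArG box, found in 1.48% of windows, was present only before Egr2 among the 7. It was in 4 of its 5 windows and at 72 to 63 bases in the one shown. The 3 overlapping windows hold the same CArG box. The EGR site GCGGGGGCG (2.6% of windows) was matched before Fosb alone, at 50 to 42, and the AP-1 site TGANTCA (6.73%) before none of the 7. A match is a description of letters and does not show that a factor binds there.

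**Figure D1:**
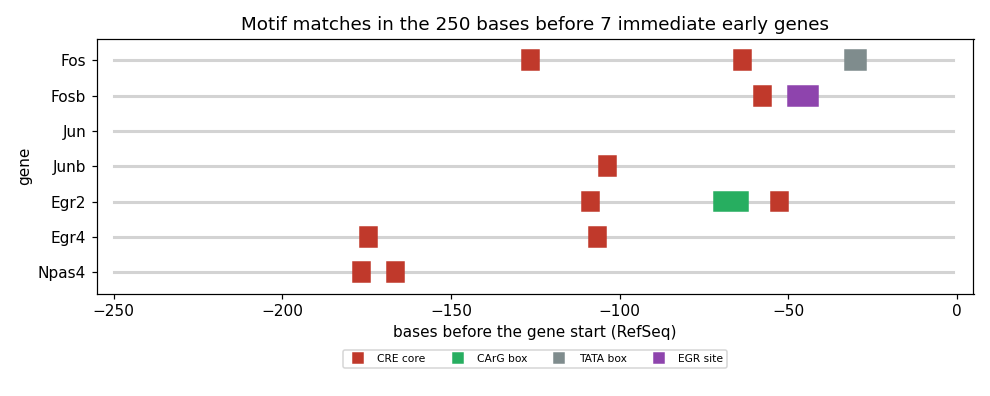
Motif matches (coloured boxes, drawn to scale) in the 250 bases before the RefSeq start of 7 immediate early genes; the horizontal axis is the distance to the start in bases. Within these 250 bases CRE cores stand before all of the genes but Jun, and the CArG box before Egr2 only. Sequence farther away was not searched.

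None of the immediate early genes passed the test between genotypes. Of the 13 probe sets 0 passed in either direction (limma, adjusted p under 0.05), as did 0.0% of all probe sets in each direction. At an unadjusted p under 0.05 the members also gave 0, against 1.22% of all probe sets, and their smallest unadjusted p was 0.295 (limma). The genotypes overlapped in every member probe set, whereas they did not overlap in 5.39% of all probe sets. With fewer arrays to separate, the member probe sets without overlap numbered 0, 2 and 1 without p300+/- 1, 2 or 3, beside 13.2%, 15.1% and 13.2% of all probe sets. They numbered 3, 0 and 0 without wild-type 1, 2 or 3, beside 12.1%, 18.1% and 12.9%. Without both p300+/- 3 and wild-type 2 there was 1, beside 28.3%. Differences of p300+/- minus wild-type ran from -0.20 to 0.23 on the log2 scale. Values were on the higher side in p300+/- for 10 of the 13 probe sets, and for 9 of the 10 genes by their first probe set in file order, where 51.7% of all probe sets were. With each gene averaged over its probe sets, or with array weights in the fit, it was 7 of the 10 genes in either case. The median of the 10 genes was 0.13, beside 0.0057 over all probe sets. The genes share arrays and vary together, so that these counts are not independent. The 95% intervals of the 13 probe sets reached at the widest from 0.604 to 1.94 times the wild-type level. Exact two-sided permutation tests of 3 against 3 arrays gave p = 0.2 at the smallest, in a design where none can fall below 0.1.

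**Figure D2:**
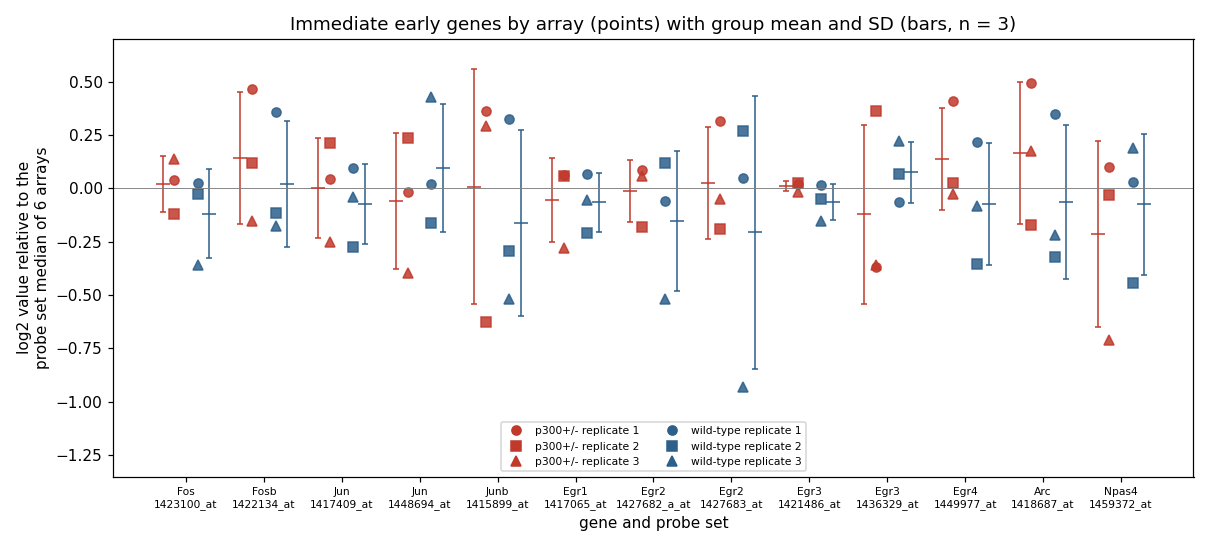
Log2 values of the 13 probe sets in the 6 arrays, relative to each probe set's own median; red symbols are p300+/- and blue symbols wild-type, the symbol shape gives the replicate number, and the bars are mean and SD (n = 3). The colours overlap in every probe set.

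The deposited values are log2 intensities centred on each probe set's own median, which a value of 0 stands for, and absolute levels are not kept. The digits of the values still place a probe set in a coarse intensity class. By this measure 7 member probe sets were in the brightest class (log2 intensity of 8 to 16), 6 in the middle class (4 to 8) and 0 in the dimmest. Among probe sets placed in the brightest class, 5.73% lay on a number grid coarser than that class should give, a guide to how often a probe set is placed 1 class too high. Of 10 markers of hippocampal excitatory neurons, 7 were in the brightest class, 2 in the middle class and 1 had no class. Column medians ran from -0.014 to 0.023. The targeted gene Ep300 was at -0.26, -0.22 and -0.50 in p300+/- 1, 2 and 3 and at 0.22, 0.38 and 0.40 in wild-type 1, 2 and 3, without overlap. Ep300 was 0.634 times the wild-type level, with an interval of 0.516 to 0.778 (unadjusted p = 0.00103, adjusted p = 0.9999, limma). Its exact permutation test gave p = 0.1, the smallest value that this design allows. Of the 4 probe sets of Crebbp, which encodes CBP, the differences were -0.034, -0.035, -0.51 and -0.13. Arrays p300+/- 3 and wild-type 2 were the lowest in synaptic genes and excitatory neuron markers, and are called the arrays that stood apart. Their deviations from their own genotype means correlated at 0.65 over all probe sets, and those of p300+/- 1 and wild-type 1 nearly as highly, at 0.61. No distance between arrays was computed. Markers of choroid plexus averaged -2.51 in wild-type 2 (9 of 9 lowest there) and -0.16 to 0.35 in the other arrays, with p300+/- 3 the highest. Oligodendrocyte markers were also highest in p300+/- 3 (0.17) and lowest in wild-type 2 (-0.16), so the arrays were not alike in these lists. Synaptic genes averaged -0.36 in p300+/- 3 and -0.89 in wild-type 2, and -0.036 to 0.24 elsewhere. In bulk tissue fewer cells of a type and less RNA per cell cannot be told apart.

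In the FOS family, Fos and Fosb encode the partners that JUN proteins need for the most active AP-1 dimers. Fos (1423100_at) was at 0.038, -0.12 and 0.14 in p300+/- 1, 2 and 3 and at 0.026, -0.026 and -0.36 in wild-type 1, 2 and 3. The lowest array was wild-type 3, and the other 5 lay between -0.12 and 0.14. The group means were 0.019 ± 0.13 and -0.12 ± 0.21 (SD, n = 3), a log2 fold change of 0.14 ± 0.14 (SE). As a ratio this was 1.10, with a 95% interval of 0.870 to 1.39 (adjusted p = 0.9999, limma). Without wild-type 3 the difference of Fos was 0.019. Fosb (1422134_at) was at 0.47, 0.12 and -0.15 in p300+/- pools and at 0.36, -0.12 and -0.18 in wild-type pools. Replicate 1 of both genotypes was high and the other arrays of each genotype were lower. The difference was 0.12 ± 0.21 (SE), or 1.09 times with an interval of 0.779 to 1.52, and it turned to -0.039 without p300+/- 1. Without both p300+/- 3 and wild-type 2 the differences of Fos and Fosb were 0.12 and 0.20.

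In the JUN family, Jun is the strong transactivator and Junb often restrains it. Junb (1415899_at) was at 0.36, -0.63 and 0.29 in p300+/- pools and at 0.32, -0.29 and -0.52 in wild-type pools. It had the widest spread within genotypes among the genes' first probe sets, with SDs of 0.55 and 0.44, a spread larger than that of 94.8% of all probe sets. Its difference was 0.17 ± 0.31 (SE), or 1.13 times with an interval of 0.677 to 1.87. The sign turned without p300+/- 1 (-0.0052), without wild-type 3 (-0.0077) and without both p300+/- 3 and wild-type 2 (-0.037). Jun was read by probe set 1417409_at at 0.042, 0.21 and -0.25 in p300+/- pools and at 0.097, -0.27 and -0.042 in wild-type pools. The lowest arrays were p300+/- 3 and wild-type 2. The difference was 0.075 ± 0.16 (SE), an interval of 0.810 to 1.37 times, and it turned to -0.031 without p300+/- 2 and -0.025 without wild-type 2. The other probe set of Jun (1448694_at) gave -0.15 ± 0.21 (SE), with 0.43 in wild-type 3 as its highest value, and was 0.013 and 0.011 without p300+/- 3 and without wild-type 3. Over the 6 arrays the Jun probe sets correlated at r = 0.64 (rho = 0.60, exact permutation p = 0.167 and 0.242), and at -0.27 without p300+/- 3 and wild-type 2, the pair farthest from the median. The probe sets of Jun therefore gave differences of opposite sign, neither of them beyond its error.

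Among the EGR genes, Egr1 (also called Zif268) is the member most used as a marker of plasticity, and Egr2, Egr3 and Egr4 share its zinc finger type. Egr1 (1417065_at) was at 0.061, 0.056 and -0.28 in p300+/- pools and at 0.068, -0.21 and -0.056 in wild-type pools. As for Jun, p300+/- 3 and wild-type 2 were the lowest arrays, and the group means lay close together. The difference was 0.011 ± 0.14 (SE), with an interval of 0.799 to 1.27 times the wild-type level (adjusted p = 0.9999, limma). Its sign turned when p300+/- 1 (-0.046), p300+/- 2 (-0.044) or wild-type 2 (-0.060) was left out, and it was 0.053 without both arrays that stood apart.

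Egr2 (Krox20) was read by 2 probe sets of the same accession. Probe set 1427682_a_at was at 0.084, -0.18 and 0.059 in p300+/- pools and at -0.059, 0.12 and -0.52 in wild-type pools. Probe set 1427683_at was at 0.32, -0.19 and -0.048 in p300+/- pools and at 0.048, 0.27 and -0.93 in wild-type pools. Both were lowest in wild-type 3 and next lowest in p300+/- 2. The Egr2 probe sets correlated at r = 0.96 over the 6 arrays (rho = 0.89), with exact permutation p = 0.00833 and 0.0333, and p = 0.025 and 0.1 after adjustment over the 3 genes with a pair of probe sets. Without the 2 arrays farthest from the median the r was 0.57. Their differences were 0.14 ± 0.18 and 0.23 ± 0.31 (SE), intervals of 0.820 to 1.48 and 0.713 to 1.94 times. Without wild-type 3 they turned to -0.042 and -0.13, and without both arrays that stood apart they were 0.24 and 0.51.

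Egr3 gave different pictures by its 2 probe sets. Probe set 1421486_at was at 0.021, 0.025 and -0.015 in p300+/- pools and at 0.015, -0.052 and -0.15 in wild-type pools. It was the flattest of the members, with a spread within genotypes larger than that of only 3.42% of all probe sets. Probe set 1436329_at was at -0.37, 0.36 and -0.36 in p300+/- pools and at -0.066, 0.066 and 0.22 in wild-type pools. It was in the brightest class and the flat probe set in the middle class. The Egr3 probe sets did not vary together (r = -0.35, rho = -0.086, exact permutation p = 0.532 and 0.919, and r = 0.57 without the 2 farthest arrays). Their differences were 0.074 ± 0.11 and -0.20 ± 0.21 (SE), and neither passed. Egr4 (1449977_at) was at 0.41, 0.027 and -0.027 in p300+/- pools and at 0.22, -0.36 and -0.085 in wild-type pools. As for Fosb, replicate 1 was the highest array of both genotypes. Its difference of 0.21 ± 0.19 (SE), or 1.16 times with an interval of 0.855 to 1.57, had the smallest p of the members (unadjusted p = 0.295, adjusted p = 0.9999, limma). Without wild-type 2 it was 0.070 and without wild-type 1 it was 0.36.

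Arc is the member whose product acts at the synapse itself. Arc (1418687_at) was at 0.49, -0.17 and 0.17 in p300+/- pools and at 0.35, -0.32 and -0.22 in wild-type pools. Replicate 1 of each genotype was again on top, and all 3 p300+/- arrays lay above the wild-type median, with overlap. The group means were 0.16 ± 0.33 and -0.063 ± 0.36 (SD, n = 3). The log2 fold change was 0.23 ± 0.23 (SE), or 1.17 times with a 95% interval of 0.805 to 1.70 (adjusted p = 0.9999, limma). It was 0.063 without p300+/- 1, 0.43 without wild-type 1, 0.095 without both arrays that stood apart and 0.014 with array weights.

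Npas4 was the exception among the genes' first probe sets, with its mean on the lower side in p300+/-. Npas4 (1459372_at) was at 0.098, -0.030 and -0.71 in p300+/- pools and at 0.030, -0.44 and 0.19 in wild-type pools. Like Jun and Egr1 it was lowest in p300+/- 3 and wild-type 2. The difference was -0.14 ± 0.25 (SE), or 0.908 times with an interval of 0.604 to 1.36 (adjusted p = 0.9999, limma). It turned to 0.11 when p300+/- 3 was left out and was -0.077 without both arrays that stood apart.

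**Figure D3:**
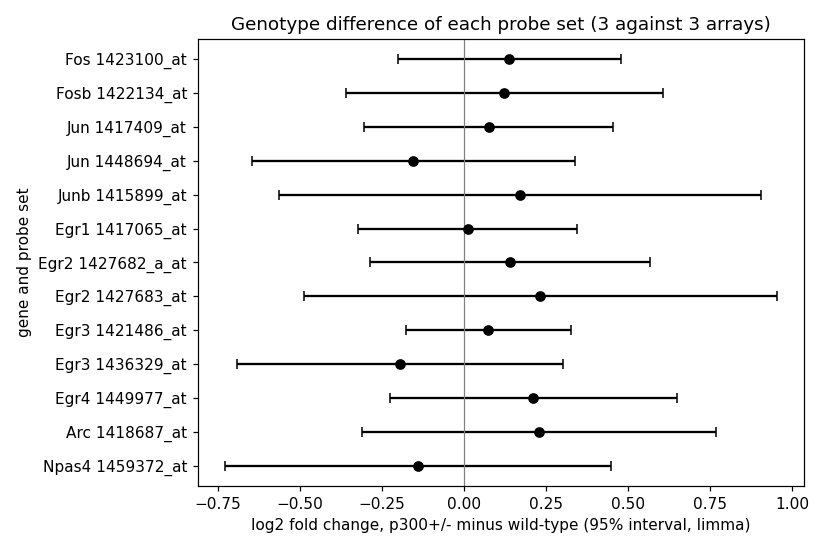
Log2 fold change of p300+/- minus wild-type (points) with its 95% interval from limma (bars) for each of the 13 probe sets. Every interval includes 0, and the point estimates run from -0.20 to 0.23.

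The spread within genotypes was larger than the difference between them in 12 of the 13 probe sets, the exception being the flat one of Egr3. The share of all probe sets for which this holds was not computed, so the count is not a trait of these genes. The median SD within genotypes was 0.30 for the 13 probe sets and 0.19 over all probe sets. It lay above the median of all probe sets for 10 of the 13 members, and above their 90th percentile of 0.39 for 2, Junb and the Egr2 probe set 1427683_at. Fos, Egr1 and the flat Egr3 probe set lay below the median of all probe sets. Averaged over the 10 genes, the arrays stood at 0.21, -0.069 and -0.077 for p300+/- and at 0.14, -0.20 and -0.19 for wild-type. By their first probe sets, all 10 genes were above their own median in p300+/- 1 and 9 in wild-type 1. In wild-type 2 and wild-type 3 there was 1 each. Over all probe sets the medians of these arrays were, in the same order, 0.0061, -0.014, 0.023 and -0.0064. The shares of all probe sets above their own median were not counted. The other probe sets of Jun and Egr3 were below their own median in p300+/- 1, at -0.020 and -0.37. That of Egr2 was above, at 0.32. The difference between the genotype means of the averages over the 10 genes, 0.10, was smaller than the SDs between arrays of 0.16 and 0.20. It ran from 0.0096 without p300+/- 1 to 0.22 without wild-type 1, and was 0.0082 with array weights.

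Between arrays, the median r over the 45 pairs of genes, each by its first probe set, was 0.51, beside 0.013 over all pairs of probe sets. It was 0.48 with the genotype means subtracted. An r of at least 0.75 was reached by 11 of the 45 pairs (24.4%) and by 7.3% of all pairs of probe sets. A value above 0 was found for 77.8% of the member pairs and for 50.8% of all pairs. By single pairs 0 passed after adjustment over the 45 (exact permutation test of the 720 pairings). The smallest adjusted p was 0.229 for r and 0.463 for rho, while 6 pairs by r and 1 by rho had an unadjusted p under 0.05. All of these relations rest on the same 6 arrays.

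**Figure D4:**
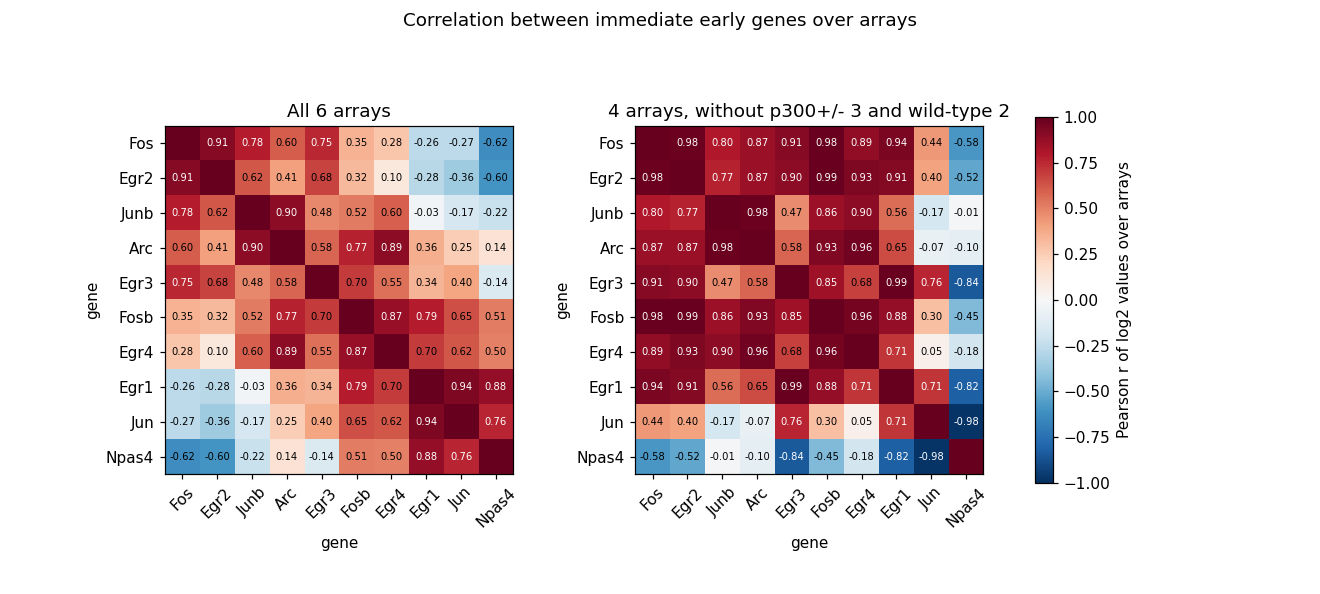
Pearson r of the log2 values between the 10 genes, over all 6 arrays (left) and over the 4 arrays that remain without p300+/- 3 and wild-type 2 (right); red is positive and blue negative. On the left Fos and Egr2 (0.91) and Egr1 and Jun (0.94) stand in different blocks, and on the right Egr1 joins the Fos block while Npas4 turns to -0.82 with Egr1.

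The highest r with Fos belonged to Egr2, Junb and the flat probe set of Egr3, and none of these pairs passed after adjustment. The r of Fos and Egr2 was 0.91 (rho = 0.60, exact permutation p = 0.0292 and 0.242, adjusted p = 0.275 for r) and 0.66 without the 2 arrays farthest from the median of Fos. For Fos and Junb it was 0.78 (rho = 0.77, exact permutation p = 0.0306 and 0.103, adjusted p = 0.275 for r) and 0.96 without the 2 farthest. With Egr3 it was 0.75 (rho = 0.26, exact permutation p = 0.108 and 0.658) and -0.030 without those arrays, so that this relation rested on them. An r of at least 0.75 with Fos was found for 3 of the other 9 genes and for 6.93% of all probe sets. Wild-type 3 was the lowest array in 5 of the 13 member probe sets, those of Fos, Fosb and Egr2 and the flat probe set of Egr3, and in 20.5% of all probe sets. Fos ran against Npas4 (r = -0.62, rho = -0.49, exact permutation p = 0.193 and 0.356, adjusted p = 0.456 for r). This r turned to 0.24 without the 2 arrays farthest from the median of Fos.

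The highest r with Arc belonged to Junb, Egr4 and Fosb, which were all high in replicate 1 of both genotypes, and none of these pairs passed after adjustment. The r of Arc and Egr4 was 0.89 (rho = 0.94, exact permutation p = 0.00833 and 0.0167, adjusted p = 0.229 for r) and 0.58 over the 4 arrays without p300+/- 1 and wild-type 1. Junb and Arc had an r of 0.90 (rho = 0.77, exact permutation p = 0.0611 and 0.103, adjusted p = 0.393 for r) and 0.96 without the 2 farthest arrays of Junb. For Arc and Fosb the r was 0.77 (rho = 0.71, exact permutation p = 0.103 and 0.136, adjusted p = 0.406 for r). It was -0.17 without p300+/- 1 and wild-type 1, so that this relation rested on them. Fosb and Egr4 had an r of 0.87 (rho = 0.83, exact permutation p = 0.0125 and 0.0583, adjusted p = 0.229 for r), which was 0.40 without p300+/- 1 and wild-type 1. An r of at least 0.75 with Arc was found for 3 of the other 9 genes and for 3.67% of all probe sets. Arrays p300+/- 1 and wild-type 1 were the 2 highest in 5 of the 13 member probe sets (those of Arc, Junb, Egr4, Fosb and Egr1), or 38.5%, and in 8.86% of all probe sets.

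Egr1, Jun and Npas4 were all lowest in the arrays that stood apart, and none of their pairs passed after adjustment. The r of Egr1 and Jun was 0.94 (rho = 0.77, exact permutation p = 0.0153 and 0.103, adjusted p = 0.229 for r) and 0.71 without p300+/- 3 and wild-type 2. Egr1 and Npas4 had an r of 0.88 (rho = 0.60, exact permutation p = 0.0417 and 0.242, adjusted p = 0.312 for r), which turned to -0.82 without those arrays, and Jun and Npas4 had 0.76 (rho = 0.37, exact permutation p = 0.1 and 0.497), which turned to -0.98. These relations of Npas4 therefore rested on 2 arrays. An r of at least 0.75 with Egr1 was found for 3 of the other 9 genes (Jun, Npas4 and Fosb) and for 10.1% of all probe sets. Arrays p300+/- 3 and wild-type 2 were the 2 lowest in 4 of the 13 member probe sets (those of Egr1, Jun and Npas4), or 30.8%, and in 15.8% of all probe sets.

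Synaptic genes were low in the same arrays as Egr1, Jun and Npas4. All 7 measured synaptic genes were below their own median in p300+/- 3 and in wild-type 2, as were 10 and 9 of the 10 excitatory neuron markers, which averaged -0.42 and -0.58 there. Over all probe sets the medians of these arrays were 0.0073 and 0.023, and the shares below their own median were not counted. In a comparison added after these values were seen, the mean of the synaptic list correlated with Jun at r = 0.88 (rho = 0.83, exact permutation p = 0.00556 and 0.0583). After adjustment over the 10 genes the p for r was 0.0556. The r with Jun was 0.71 without the 2 arrays that stood apart. The same list had an r of 0.79 with Egr1 and 0.71 with Npas4 (rho = 0.54 for both, exact permutation p = 0.05 and 0.0958), which were 0.28 and -0.57 without them. None of the 10 relations passed after adjustment. With Egr4, which was not among the genes lowest in both of these arrays, the r of the list was 0.72 (rho = 0.60, exact permutation p = 0.121 and 0.242), which was -0.12 without those arrays. With Fosb it was 0.51, with Arc 0.38 and with Egr3 0.23, and with Fos it was -0.29, with Egr2 -0.50 and with Junb -0.056. The part of the synaptic genes in the values of Egr1, Jun and Npas4 was not tested.

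**Figure D5:**
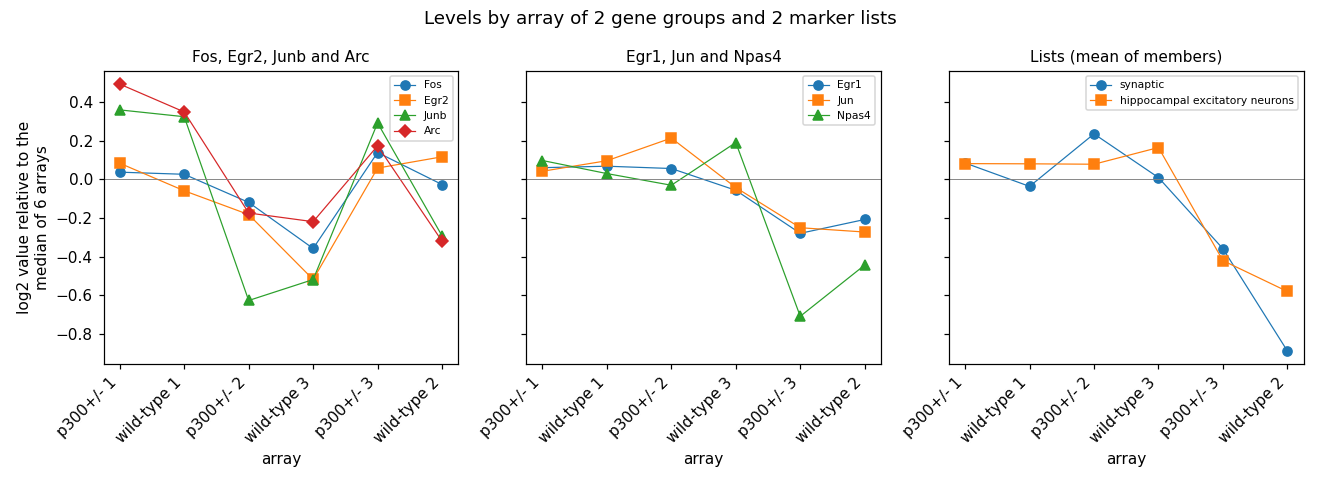
Log2 values by array, relative to the median of the 6 arrays, for Fos, Egr2, Junb and Arc (left), Egr1, Jun and Npas4 (middle) and the means of the synaptic and excitatory neuron lists (right); lines join the arrays only to guide the eye. On the left Fos, Egr2 and Junb are lowest in p300+/- 2 and wild-type 3 and Arc in wild-type 2 (-0.32), and the middle genes and both lists are low in p300+/- 3 and wild-type 2.

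With p300+/- 3 and wild-type 2 left out, the median r over the 45 pairs was 0.76 over 4 arrays. The median r over all pairs of probe sets was not computed for these 4 arrays. Whether the 45 pairs stand out there was therefore not tested, and the value cannot be set beside that over all arrays. Egr1 then varied with Fos (r = 0.94), Egr2 (0.91) and the flat probe set of Egr3 (0.99). Over all arrays its r with these had been -0.26, -0.28 and 0.34. The probe sets of Egr3 had an r of -0.36 with each other over the 4 arrays. Npas4 had a negative r with each of the 9 other genes over these 4 arrays. Correlations over 4 points are given as a description and without a test.

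Measured against the mean of the other 9 genes, Fosb (r = 0.93), Egr4 (0.91) and Arc (0.90) were nearest the common profile and Npas4 (0.15) and Egr2 (0.26) farthest, over 6 arrays. Outside the 10 genes, the 6 whose probe sets were most like the mean profile were Slc22a8 (r = 0.99), Hdgfl2 (0.98), Rreb1 (0.97), Exoc5 (0.97), Braf (0.97) and Cspg4 (0.96). They were taken from 15038 probe sets with a gene symbol and an SD over the arrays of at least 0.2. An r of at least 0.9 with the mean profile was found for 0.52% of all probe sets, and none of the 6 genes was on the lists of activity-regulated genes or their regulators.

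Other genes induced by neuronal activity did not pass either. Of 56 listed genes 53 were measured, and 0 rose and 0 fell past the threshold (limma). At an unadjusted p under 0.05 there was 1, beside 1.22% of all probe sets. Values were on the higher side in p300+/- for 38 and on the lower side for 15, where 51.7% of all probe sets were on the higher side. The median log2 fold change was 0.070, beside 0.0057 over all probe sets. This list averaged -0.0027, -0.021 and 0.15 in p300+/- 1, 2 and 3 and -0.024, 0.080 and -0.11 in wild-type 1, 2 and 3. The mean of the 10 classical genes, though not each gene, was highest in replicate 1 of both genotypes. That of this list was not. The smallest p belonged to Dnajb5, a co-chaperone gene, at 0.25, 0.16 and 0.39 in p300+/- pools and -0.16, -0.30 and -0.18 in wild-type pools. The genotypes did not overlap, at 0.48 ± 0.12 (SE; adjusted p = 0.9999, limma). Dusp1, a phosphatase that switches MAP kinases off, was at 0.24 ± 0.11 (SE), and the survival gene Mcl1 at -0.18 ± 0.11 (SE). The genotypes did not overlap in Dusp1 and Mcl1 either, as in 5.39% of all probe sets. These genes were taken for their small p, so the lack of overlap is no separate result.

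The factors and kinases upstream of these genes did not pass. Of 25 listed regulators 20 were measured, 8 with values on the higher and 12 on the lower side in p300+/- (median -0.019). Of all probe sets 51.7% were on the higher side. None of the 20 passed in either direction (limma), and 1 had an unadjusted p under 0.05, beside 1.22% of all probe sets. Creb1, the factor that recruits CBP and p300, was at 0.40 ± 0.17 (SE) by its first probe set, with overlap between the genotypes. It had the unadjusted p under 0.05 (0.0432, limma). Camk4, a kinase that phosphorylates CREB in the nucleus, was at 0.46 ± 0.21 (SE), from 0.23, 0.65 and -0.090 in p300+/- pools and -0.38, -0.29 and 0.090 in wild-type pools. Mef2d, an activity-dependent factor of neurons, was at 0.20 ± 0.15 (SE). None of the 3 had an adjusted p under 0.9999 (limma).

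Markers of other cells and regions were averaged over the same arrays. The mean of the 10 genes had its 2 highest values in p300+/- 1 and wild-type 1, and no list had both arrays on top. Astrocyte markers were highest in wild-type 1 (0.079), followed by p300+/- 3 (0.025) and p300+/- 1 (0.015). No r of a list with the mean profile was computed, and the part of cell types in that profile was not tested. In the order p300+/- 1, 2 and 3 and wild-type 1, 2 and 3, endothelial and vessel markers averaged 0.0084, 0.25, 0.0049, -0.10, -0.091 and 0.034 (10 genes). Erythroid and blood markers averaged -0.14, 0.16, 0.61, -0.15, 0.17 and -0.24 (5 genes). Microglia markers lay between -0.16 and 0.11 (6 genes), astrocyte markers between -0.18 and 0.079 (6), and oligodendrocyte markers between -0.16 and 0.17 (5). Interneuron markers ran from -0.029 to 0.19 (8 genes), thalamus markers from -0.21 to 0.095 (6) and markers of cortex and striatum from -0.21 to 0.19 (5). No member of these lists, the choroid plexus list or the neuronal lists passed between genotypes (limma).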

How the data were processed

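Total RNA of hippocampi was hybridized to 6 Affymetrix arrays, each a pool of 4 animals, 3 per genotype. Per the labels' protocols, the authors processed and normalized the data in GeneSpring GX. The labels do not state its version, the probe summarization or the normalization between arrays. The deposited log2 values are relative to each probe set's median over the arrays (within 1e-06 of 0 for all 45037 tested). Their base is not stated and was taken as 2 from the number grids of the values, so fold changes depend on it. Leaving aside 64 controls, 34945 probe sets carried 1 gene symbol, 932 several and 9160 none. Symbols were updated by gene identifier to RefSeq (GRCm38.p6).

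All probe sets were fitted with limma 3.58.1 in R 4.3.3 (lmFit, eBayes, genotype only), two-sided, with Benjamini-Hochberg adjustment over 45037 and a threshold of 0.05, after a check on simulated data. The 3 replicates of a genotype are described as independent, so p-values measure the spread between pools. The number of arrays limits the precision (median SE 0.15). For gene-level values the first probe set listed was used. Correlations used exact permutation of pairings. Motifs were searched on both strands with Python 3.11.15, and figures drawn with matplotlib 3.10.9. All probe sets of the 10 genes were named, with Ep300 and Crebbp, the 3 genes of smallest p in the activity-regulated and regulator lists, and the 6 genes most like the mean profile. Members and lists were chosen with earlier results of these data known. Alternatives covered normalization, moderation, array weights, a replicate block, the level class, a threshold of 0.1 and each array left out.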

Additional observations from a re-analysis of the deposited data

How the results depend on the processing

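No member, no gene of the pathway lists and no other probe set passed an adjusted p of 0.05 under any of the alternatives run, and the smallest adjusted p of a member was 0.974 (limma). Over all probe sets the smallest was 0.0668, with trend and robust moderation. At a threshold of 0.1, added after the values were seen, that fit called 1 probe set, of Txnip, which is not a member. The log2 fold changes of single probe sets changed sign in 16 of the 130 cases where the alternative can move them, 13 of them among the 78 that left out 1 array. The other 3 were Junb at -0.11 and Egr1 at -0.025 with array weights, and Junb at -0.037 without both p300+/- 3 and wild-type 2. With each array left out in turn, Fosb ran from -0.039 to 0.29, Junb from -0.0077 to 0.49, Egr1 from -0.060 to 0.12, Npas4 from -0.32 to 0.11, Jun from -0.031 to 0.20 and from -0.30 to 0.013 by its 2 probe sets, and Egr2 from -0.042 to 0.28 and from -0.13 to 0.47. With array weights, Fos was 0.061, Fosb 0.015, Egr4 0.079 and Arc 0.014. The mean log2 fold change of the 10 genes ran from 0.0096 to 0.22 with an array left out and was 0.0082 with array weights, an alternative added after the values were seen. The median r between the genes ran from 0.40 to 0.59 with an array left out. It was 0.36 with each gene averaged over its probe sets and 0.76 without both arrays that stood apart. The median r over all pairs of probe sets was not computed for these alternatives. Member probe sets whose genotypes did not overlap numbered 0 to 3 with an array left out, where fewer arrays must be separated, and 1 without both arrays, beside 12.1% to 18.1% and 28.3% of all probe sets. Whether the replicate numbers pair the arrays was not settled, because deviations sum to 0 within a genotype and their correlations are not independent. Deviations of same-numbered arrays correlated at 0.61, -0.23 and -0.47, and the fit with the replicate block called 0 probe sets, as did the fit without it, with 275 higher and 329 lower at an unadjusted p under 0.05 in place of 347 and 203.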
